A study of Mus musculus with 3 samples.

Results

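The smooth muscle contractile genes are 32 genes that encode the actin filament, the myosin motor, the anchors, the ion channels and the transcription factors of smooth muscle. They were chosen by gene symbol from the probe sets of the array that carry a single symbol, and all 32 were measured, among 19938 genes read this way. Colonic gene expression was measured in distal colon from male mice of the BALB/c strain on day 7, on 1 array for each of 3 groups. The IL-4Rα-/- colitis array held RNA from 6 mice given 3% DSS in the drinking water, the WT colitis array RNA from 3 mice given 3% DSS, and the WT normal array RNA from 4 mice given water. The IL-4Rα-/- mice carry the targeted germline allele tm1Sz of Il4ra, the shared receptor chain for IL-4 and IL-13, and the WT mice were their littermates, all 10 to 12 weeks old. DSS, dextran sulfate sodium, injures the colonic epithelium and causes acute colitis. With 1 array of pooled RNA per group the differences have no error and no p-value. The 3 arrays include no IL-4Rα-/- mice on water, so an effect of the genotype alone and an effect of the genotype in colitis cannot be told apart.

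Smooth muscle of the colon forms the thick outer muscle layers, the thin muscle layer under the mucosa and the walls of blood vessels. It contracts when calcium enters through voltage-gated channels, calmodulin activates myosin light chain kinase, and phosphorylated myosin pulls on actin filaments that are anchored to dense bodies and to the cell membrane. Myosin phosphatase reverses the phosphorylation, and potassium channels damp calcium entry. Many genes of the contractile apparatus are driven by serum response factor, SRF, which binds a short DNA element named the CArG box, and by its muscle-specific partner myocardin.

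To show where SRF could bind next to the members, the RefSeq promoters of build GRCm38.p6, from 250 bases before to 50 bases after each start, were searched for the CArG box on both strands. Of the 32 members, 28 were matched to this table by symbol, and Actg2, Tagln, Myh11 and Myocd were not. A CArG box was found at 5 of the 28 members (17.9%), beside 1.81% of 27025 genes. It was not particular to the members. Among other smooth muscle genes 3 of 37 had a box (8.11%), and among cytoplasmic counterparts of the contractile proteins 1 of 8 (12.5%). The 5 stretches of the members are shown because they hold these boxes, which stand in capitals. Each runs 5′ to 3′ on the strand of its gene.
Srf: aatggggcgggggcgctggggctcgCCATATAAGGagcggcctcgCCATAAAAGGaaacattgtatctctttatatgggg
Cnn2: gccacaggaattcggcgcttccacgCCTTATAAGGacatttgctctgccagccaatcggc
Myl6: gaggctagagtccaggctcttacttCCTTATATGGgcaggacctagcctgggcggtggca
Myl9: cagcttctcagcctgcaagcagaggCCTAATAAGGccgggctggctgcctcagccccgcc
Vcl: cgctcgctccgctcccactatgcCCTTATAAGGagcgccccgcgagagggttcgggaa
The stretch of Srf lies at chr17:46556190-46556269 on the minus strand, with 2 boxes that begin 82 and 62 bases before the start. That of Cnn2 lies at chr10:79988519-79988578 on the plus strand, with its box beginning 56 bases before the start. That of Myl6 lies at chr10:128493025-128493084 on the minus strand, with its box 50 bases before 1 of the starts listed for the gene. The box of Myl9 begins 161 bases before the start, in chr2:156775278-156775337 on the plus strand, and that of Vcl begins 227 bases before it, in chr14:20929148-20929205 on the plus strand. With at most 1 letter off, 14 of the 28 members had a match, beside 23.8% of all genes. The TATA motif TATAAA, searched on both strands, was found at 5 of the 28 members (17.9%), beside 15.7% of all genes. A match of letters is not evidence of binding, and its absence from this window is not evidence against it.

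The contractile genes differed little between the 3 arrays. The values are log2 signals with 2 decimals, so a difference of 1 is 2-fold. Of the 32 members, 31 were within 2-fold in all 3 comparisons, and 30 were within 1.5-fold. Cald1, which encodes caldesmon, was the 1 member past 2-fold, with the WT colitis array above both others. All 32 members had a signal above 3.5 on every array, the 95th percentile of 1210 probe sets of odorant and vomeronasal receptor genes, which serve as a guide to background. Itga8, the integrin α8 chain that binds matrix proteins, had a log2 signal of 4.36 on each array.

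The log2 signals of Il4ra were 4.76 in IL-4Rα-/- colitis, 6.63 in WT colitis and 5.69 in WT normal, lowest in the mice that carry the targeted allele. The sources used here do not say if its probes lie within the targeted stretch, so this is no full check of the genotype. The array medians over all 28944 probe sets were 4.11 in IL-4Rα-/- colitis, 4.18 in WT colitis and 4.11 in WT normal, so the WT colitis array was brighter by 0.07 on the log2 scale. Equal values were common. Of all genes, 45.8% had the same value on all 3 arrays, and 65.8% had the same value in IL-4Rα-/- colitis and WT normal. These shares were 31.3% and 54.5% among the 10728 genes at or above the median signal of all values. Among the members, 6 of 32 had the same value on all 3 arrays (18.8%), and 12 of 32 had the same value in IL-4Rα-/- colitis and WT normal (37.5%). How the deposited values came to be equal was not tested, and an exact difference of 0 here is no measure of how alike the tissues were.

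**Figure D1:**
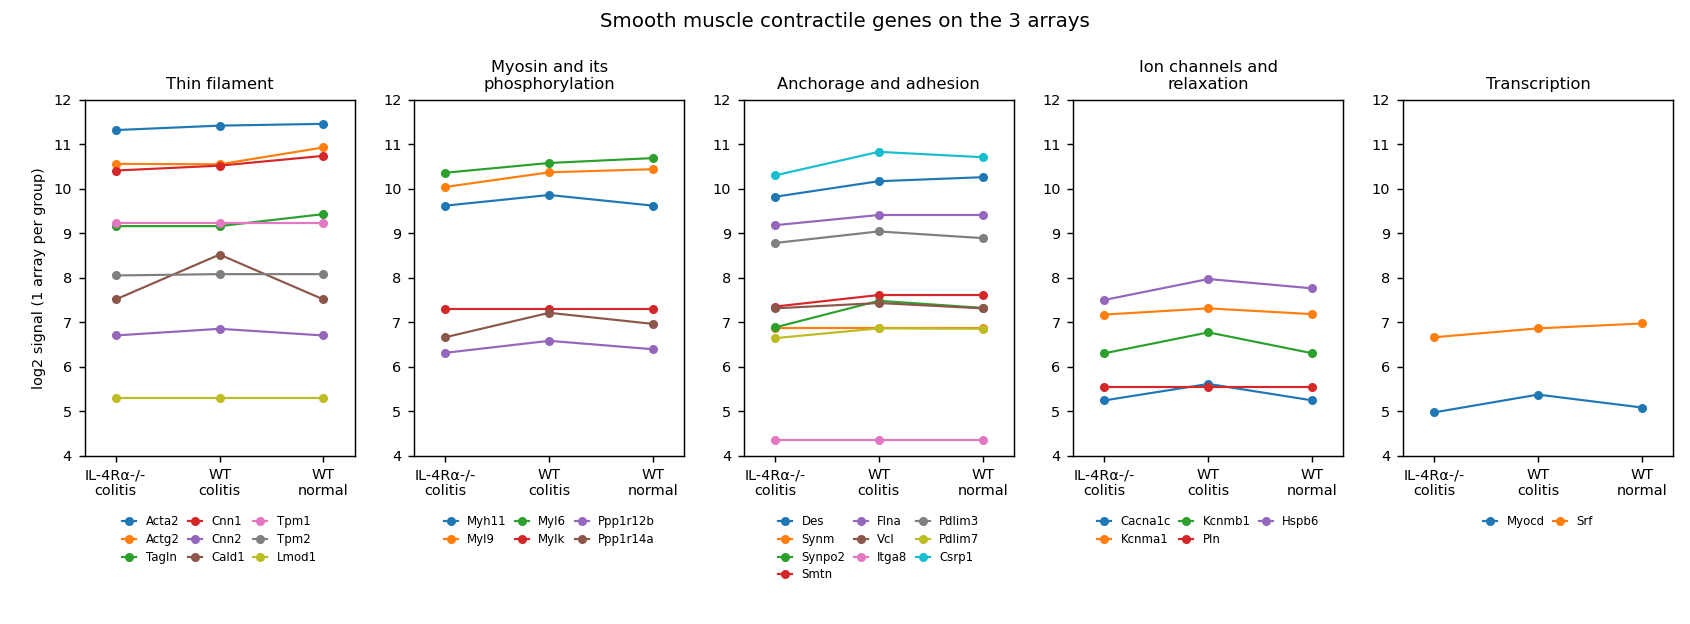
Log2 signal (y axis) of each contractile gene on the IL-4Rα-/- colitis, WT colitis and WT normal arrays (x axis), with 1 point per array, lines joining the points of a gene and a panel for each role. Most lines are nearly flat, and Cald1 alone stands out, at 7.51, 8.52 and 7.51.

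In WT colitis compared with WT normal, the contractile genes split in direction. Of the 32 members, 15 were higher by any amount, 8 were lower and 9 were equal, and their median log2 difference was 0, the same as over all genes. Among all genes 35.8% were higher, 12% were lower and 52.3% were equal, and among the 10728 genes at or above the median signal of all values 45.5% were higher and 17.3% were lower. With each array centred on its median, 14 members were higher and 18 lower, and all genes split into 28.1% higher and 70.5% lower. The lower members as deposited were both actins, Tagln, Cnn1, the light chains Myl9 and Myl6, Des and Srf, and the higher ones included Myh11, Myocd and 4 of the 5 genes of ion channels and relaxation. More than 2-fold higher was 1 member of 32, beside 1.16% of all genes, and 0 members were more than 2-fold lower, beside 0.456% of all genes. At 1.5-fold these counts were 1 higher, beside 4.11%, and 0 lower, beside 1.08%.

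The thin filament genes included the members that were lowest in WT colitis relative to WT normal. Actg2, the γ-actin of visceral smooth muscle, had a log2 signal of 10.56 in IL-4Rα-/- colitis, 10.55 in WT colitis and 10.93 in WT normal. It was thus alike in both colitis pools and lower there than in WT normal, by 1.30-fold in WT colitis and 1.29-fold in IL-4Rα-/- colitis. Tagln, the actin-binding protein transgelin, had 9.16 in IL-4Rα-/- colitis, 9.16 in WT colitis and 9.43 in WT normal, a pattern of the same kind. Cnn1, calponin 1, which binds actin and restrains the myosin motor, had 10.41 in IL-4Rα-/- colitis, 10.52 in WT colitis and 10.74 in WT normal. Acta2, the α-actin of smooth muscle and myofibroblasts, had 11.32 in IL-4Rα-/- colitis, 11.42 in WT colitis and 11.46 in WT normal, with a difference of -0.04 between WT colitis and WT normal. Actins share long identical stretches, and how far the probe sets of Acta2 and Actg2 read each other's transcripts was not tested.

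Cald1 went the other way. Caldesmon binds actin and tropomyosin, in a heavy form in smooth muscle and a light form in many other cells, and which form the probe set reads is not known here. Its log2 signal was 7.51 in IL-4Rα-/- colitis, 8.52 in WT colitis and 7.51 in WT normal, so WT colitis was 2.01-fold higher than either. This is just past 2-fold, and with centring the difference between WT colitis and WT normal was 0.94. Cnn2, calponin 2, which is also found outside muscle, had 6.70 in IL-4Rα-/- colitis, 6.85 in WT colitis and 6.70 in WT normal. The tropomyosins lie along the actin filament. Tpm1 had 9.22 on each array, and Tpm2 had 8.05 in IL-4Rα-/- colitis, 8.08 in WT colitis and 8.08 in WT normal. Lmod1, leiomodin 1, which nucleates actin filaments, had 5.30 on each array. The median over the 9 thin filament genes was a log2 difference of 0 between WT colitis and normal colon and of -0.03 between IL-4Rα-/- and WT colitis.

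**Figure D2:**
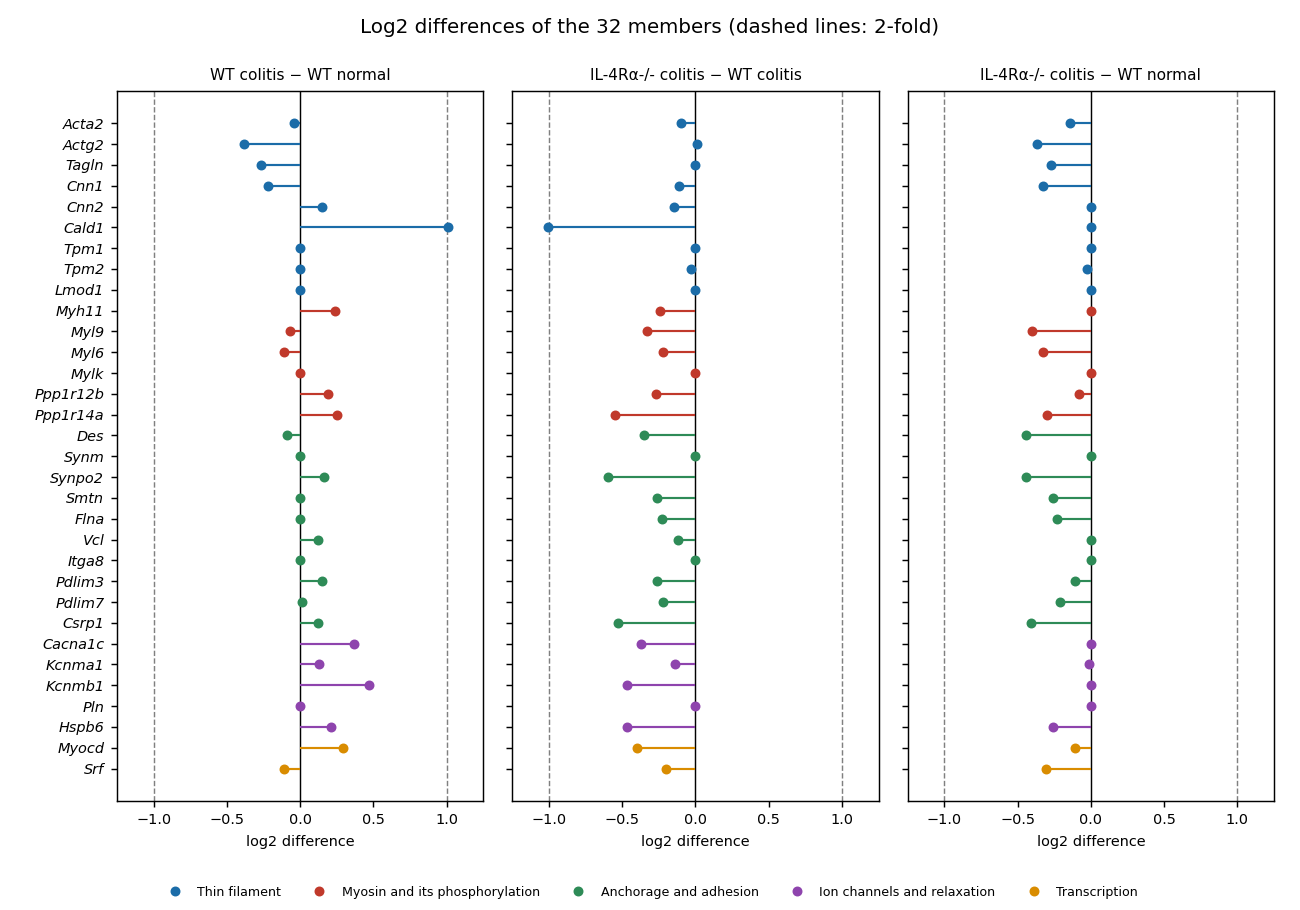
Log2 difference (x axis) of each of the 32 members (y axis, coloured by role) in 3 comparisons, with solid lines at 0 and dashed lines at 2-fold. In IL-4Rα-/- colitis minus WT colitis 24 members lie left of 0 and 1 right of it, and in IL-4Rα-/- colitis minus WT normal 20 lie left of 0 and 0 right of it.

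Among the myosin genes, the light chains and the heavy chain differed in direction in WT colitis. Myh11, the heavy chain of smooth muscle myosin, had a log2 signal of 9.62 in IL-4Rα-/- colitis, 9.86 in WT colitis and 9.62 in WT normal. Myl9, the regulatory light chain that is phosphorylated to start contraction, had 10.04 in IL-4Rα-/- colitis, 10.37 in WT colitis and 10.44 in WT normal. The IL-4Rα-/- colitis pool was the lowest, by 1.26-fold against WT colitis and by 1.32-fold against WT normal. Myl6, the essential light chain, which nonmuscle myosin also uses, had 10.36 in IL-4Rα-/- colitis, 10.58 in WT colitis and 10.69 in WT normal. Its 6 probe sets all ran the same way, with log2 differences from -0.22 to -0.16 between IL-4Rα-/- and WT colitis and from -0.11 to -0.03 between WT colitis and WT normal.

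The enzymes that set myosin phosphorylation were not alike. Mylk, myosin light chain kinase, had a log2 signal of 7.30 on each array. Ppp1r14a, the inhibitor of myosin phosphatase named CPI-17, had 6.66 in IL-4Rα-/- colitis, 7.21 in WT colitis and 6.96 in WT normal. The IL-4Rα-/- pool was 1.46-fold lower than the WT colitis pool. Ppp1r12b, a targeting subunit of myosin phosphatase, had 6.31 in IL-4Rα-/- colitis, 6.58 in WT colitis and 6.39 in WT normal. Between the colitis pools, 4 of its 7 probe sets were lower in IL-4Rα-/- mice, 3 were equal and 0 were higher.

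The genes for anchors and adhesions were mostly near equal in WT colitis and WT normal, and lower in IL-4Rα-/- colitis. The median over these 10 genes was a log2 difference of 0.005 between WT colitis and normal colon, of -0.245 between IL-4Rα-/- and WT colitis and of -0.22 between IL-4Rα-/- colitis and normal colon. Synpo2, an actin-bundling protein of dense bodies and Z-discs, had a log2 signal of 6.88 in IL-4Rα-/- colitis, 7.48 in WT colitis and 7.32 in WT normal. The IL-4Rα-/- pool was 1.52-fold lower than the WT colitis pool, after Cald1 the largest difference of a member in that comparison. Csrp1, a LIM domain protein of the actin cytoskeleton, had 10.30 in IL-4Rα-/- colitis, 10.83 in WT colitis and 10.71 in WT normal. Des, desmin, the main intermediate filament of muscle, had 9.82 in IL-4Rα-/- colitis, 10.17 in WT colitis and 10.26 in WT normal. Both were lowest in IL-4Rα-/- colitis. Pdlim3 and Pdlim7 encode PDZ and LIM domain proteins that dock on actin filaments. Pdlim3 had 8.78 in IL-4Rα-/- colitis, 9.04 in WT colitis and 8.89 in WT normal, and Pdlim7 had 6.64 in IL-4Rα-/- colitis, 6.86 in WT colitis and 6.85 in WT normal.

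Smtn and Flna shared a profile. Smtn, smoothelin, a structural protein of contractile smooth muscle cells, had a log2 signal of 7.35 in IL-4Rα-/- colitis, 7.61 in WT colitis and 7.61 in WT normal. Flna, filamin A, which crosslinks actin in most cell types, had 9.18 in IL-4Rα-/- colitis, 9.41 in WT colitis and 9.41 in WT normal. Vcl, vinculin, which ties actin to adhesion sites, had 7.31 in IL-4Rα-/- colitis, 7.43 in WT colitis and 7.31 in WT normal. Synm, synemin, a partner of desmin, had 6.87 on each array.

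Genes of ion channels and relaxation were the role group with the highest median in WT colitis relative to WT normal. The median over these 5 genes was a log2 difference of 0.21 between WT colitis and normal colon and of -0.37 between IL-4Rα-/- and WT colitis. Kcnmb1, the β1 subunit of the large-conductance potassium channel in smooth muscle, had a log2 signal of 6.30 in IL-4Rα-/- colitis, 6.77 in WT colitis and 6.30 in WT normal. Kcnma1, the pore of that channel, had 7.17 in IL-4Rα-/- colitis, 7.31 in WT colitis and 7.18 in WT normal. Both subunits were thus highest in WT colitis, the β1 subunit by 1.39-fold and the pore by 1.10-fold over IL-4Rα-/- colitis. A further probe set of Kcnma1, below the guide to background, differed in direction, with a log2 difference of 0.09 between IL-4Rα-/- and WT colitis and a value of 1.91 in both WT pools. Cacna1c, the pore of the voltage-gated calcium channel that starts contraction, had 5.24 in IL-4Rα-/- colitis, 5.61 in WT colitis and 5.24 in WT normal. Hspb6, a small heat shock protein tied to relaxation, had 7.50 in IL-4Rα-/- colitis, 7.97 in WT colitis and 7.76 in WT normal. Pln, phospholamban, which restrains the calcium pump of the sarcoplasmic reticulum, had 5.55 on each array.

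The transcription factors were both lowest in IL-4Rα-/- colitis. Myocd, myocardin, had a log2 signal of 4.97 in IL-4Rα-/- colitis, 5.37 in WT colitis and 5.08 in WT normal. Srf had 6.66 in IL-4Rα-/- colitis, 6.86 in WT colitis and 6.97 in WT normal. Srf and Myocd thus differed in direction between WT colitis and WT normal. The 5 members with a CArG box in the sequences above had log2 differences between -0.33 and -0.12 in IL-4Rα-/- relative to WT colitis, with a median of -0.20. The 23 members with a promoter but no such box lay between -1.01 and 0, with a median of -0.23, so the ranges overlapped. Between IL-4Rα-/- colitis and normal colon the median was -0.31 over the 5 members with a box, which lay between -0.40 and 0, and -0.08 over the 23 without, which lay between -0.44 and 0, so these ranges overlapped too.

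Compared with WT colitis, most contractile genes in IL-4Rα-/- colitis were lower, by small amounts that differed between roles. The thin filament genes had a median log2 difference of -0.03, and those of ion channels and relaxation had -0.37. Of the 32 members, 24 were lower by any amount, 1 was higher and 7 were equal, and the median log2 difference was -0.22, beside 0 over all genes. The member that was higher was Actg2, by 0.01. In this comparison 37.3% of all genes were lower, 10.4% higher and 52.3% equal, and of the genes at or above the median signal 44.6% were lower and 16.4% higher. With each array centred on its median, 23 members were lower and 9 higher, beside 28.8% of all genes lower and 69.5% higher. More than 1.5-fold lower were 2 of 32 members, Cald1 and Synpo2, beside 3.33% of all genes, and more than 2-fold lower was 1 member, beside 0.908%. No member was higher at these thresholds, 0 of 32 at 1.5-fold beside 0.687% of all genes and 0 at 2-fold beside 0.271%.

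Compared with WT normal, IL-4Rα-/- colitis had 20 of 32 members lower by any amount (62.5%), 12 equal and 0 higher. Of all genes 17.9% were lower, 16.4% higher and 65.8% equal, and of the genes at or above the median signal 20.9% were lower and 24.6% higher. With quantile normalization 27 members were lower and 3 higher, beside 36.6% of all genes lower and 50.9% higher. Past 2-fold were 0 members in either direction, beside 0.186% of all genes higher and 0.336% lower, and past 1.5-fold also 0, beside 0.792% higher and 0.813% lower. The median log2 difference was -0.11, and the lowest values were -0.44 for Des and Synpo2, -0.41 for Csrp1 and -0.40 for Myl9. This comparison and the preceding one share the IL-4Rα-/- colitis array, and this one and the first share the WT normal array.

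As deposited, the 32 members fell into few profiles over the 3 arrays. In 8 of them, Acta2, Actg2, Tagln, Cnn1, Myl9, Myl6, Des and Srf, both colitis pools were below WT normal (25% of the members, beside 7.72% of all genes and 10.8% of genes at or above the median signal). In 9 members WT colitis was above WT normal and IL-4Rα-/- colitis was below it, among them Csrp1, Synpo2, Hspb6 and Myocd (28.1%, beside 5.49% and 6.66%). In 6 members, Cald1, Cnn2, Myh11, Vcl, Cacna1c and Kcnmb1, WT colitis was higher and the other pools had equal values (18.8%), a share near the 17.6% of all genes and 19.9% of genes at or above the median signal. In 3 members, Tpm2, Smtn and Flna, IL-4Rα-/- colitis was lower and the other pools had equal values (9.38%, beside 4.64% and 3.38%), and the remaining 6 had 1 value throughout. The profiles, and the counts that follow, were not repeated with centring, which turns equal values on WT colitis and another array into differences. IL-4Rα-/- colitis alone held the lowest value in 18 of 32 members and the highest in 0. It alone held the lowest value in 12.3% of all genes and in 13.1% of genes at or above the median signal. It alone held the highest value in 5.62% of all genes and in 9% of those genes, so a count of 0 among 32 is near the background. With 1 array per group, the array and the genotype cannot be told apart.

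**Figure D3:**
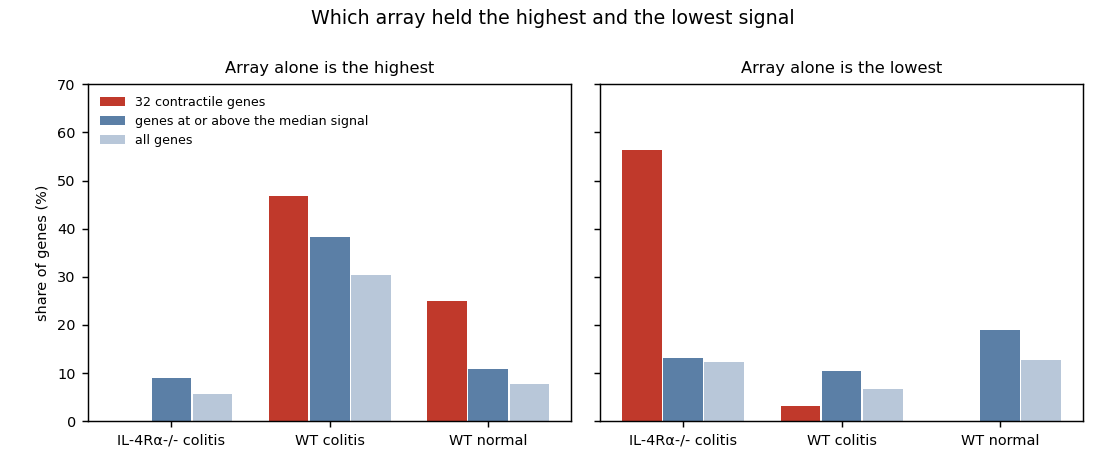
Share of genes (y axis, %) for which an array (x axis) alone held the highest signal (left) or the lowest signal (right), for the contractile genes, genes at or above the median signal and all genes. IL-4Rα-/- colitis alone is lowest in 18 of 32 contractile genes, beside 12.3% of all genes.

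Among other smooth muscle genes the picture in WT colitis was different in size. Of 46 such genes that were measured, from 49 listed, 35 were higher in the WT colitis pool, 5 were lower and 6 equal. Their median log2 difference from normal colon was 0.285, and of all genes 35.8% were higher and 12% lower. Between the colitis pools 37 of the 46 were lower in IL-4Rα-/- mice, 2 higher and 7 equal, with a median of -0.30. In that comparison 37.3% of all genes were lower and 10.4% higher. The WT colitis array was the brightest by its median, and these counts were not repeated with centring. Kcnj8, the pore of a potassium channel that closes on ATP and is abundant in vascular mural cells, had a log2 signal of 5.73 in IL-4Rα-/- colitis, 7.52 in WT colitis and 5.66 in WT normal. Abcc9, its regulatory subunit, had 5.85 in IL-4Rα-/- colitis, 7.28 in WT colitis and 5.78 in WT normal. These were the genes past 2-fold in WT colitis, at 3.63-fold and 2.83-fold, both subunits of the same channel. Which cells of the colon held their RNA was not tested. In IL-4Rα-/- colitis a further gene, Itga5, the integrin α5 chain, was 2.07-fold below the WT colitis pool. Of 8 measured cytoplasmic counterparts of the contractile proteins, such as Actb and Myh9, 0 were past 2-fold, with medians of 0.03 between WT colitis and normal colon and -0.06 between the IL-4Rα-/- and WT colitis pools.

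**Figure D4:**
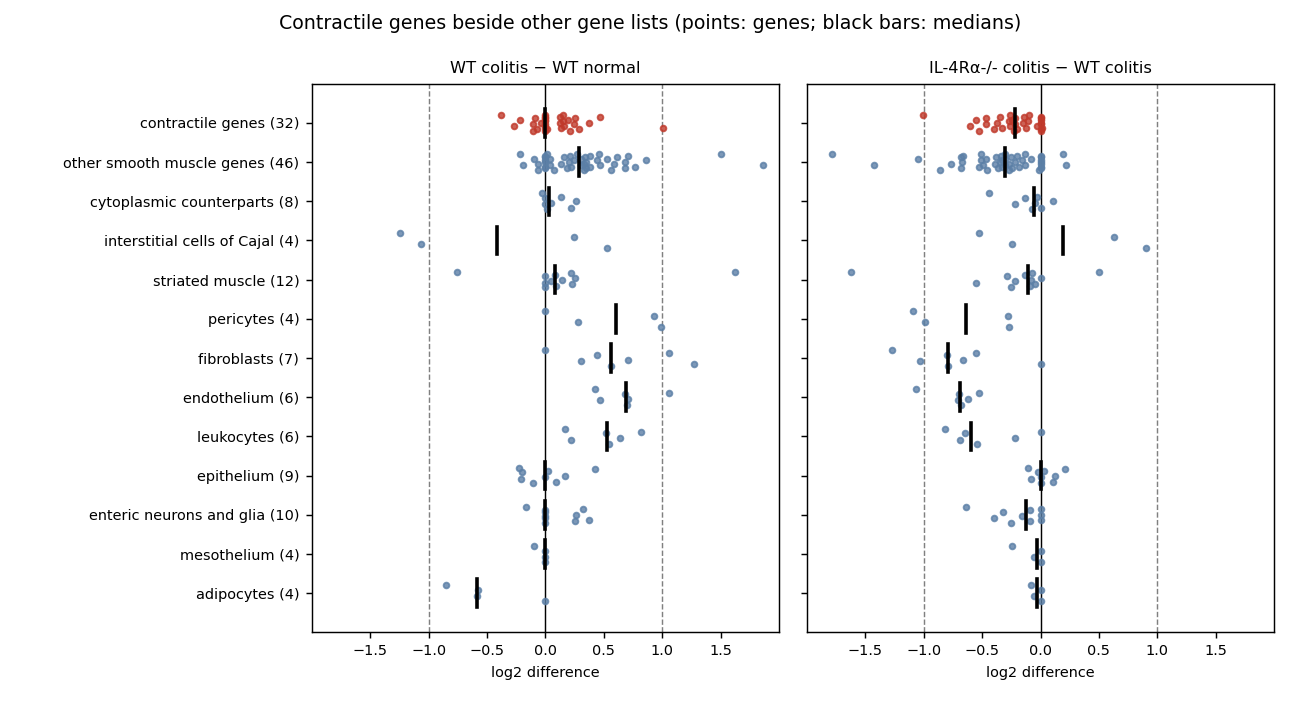
Log2 difference (x axis) of single genes (points) in the contractile genes and 12 other lists (y axis, number of measured genes in parentheses), with black bars at the medians and dashed lines at 2-fold. The median of the contractile genes is 0 in WT colitis minus WT normal, where the pericyte, fibroblast, endothelial and leukocyte lists have 0.605, 0.56, 0.69 and 0.53.

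RNA of distal colon holds many cell types, and fewer muscle cells cannot be told apart from less RNA per cell. The linear signal summed over the 32 members was 15159.8 in IL-4Rα-/- colitis, 17604 in WT colitis and 18062 in WT normal. The fibroblast, pericyte, endothelial and leukocyte lists moved more, though not every marker did. In WT colitis relative to normal colon 6 of 7 fibroblast and 3 of 4 pericyte markers were higher, and 1 of each list was equal. All 6 endothelial and all 6 leukocyte markers were higher, beside 35.8% of all genes. Between the colitis pools 1 fibroblast and 1 leukocyte marker were equal. A linear sum weighs the brightest genes of a list most. All 7 fibroblast markers were above background, and their summed linear signal was 1498 in IL-4Rα-/- colitis, 3014 in WT colitis and 1622 in WT normal. For 4 pericyte markers, all above background, the sum was 326 in IL-4Rα-/- colitis, 609 in WT colitis and 339.5 in WT normal. For 6 endothelial markers, all above background, it was 223 in IL-4Rα-/- colitis, 378 in WT colitis and 228 in WT normal, and for 6 leukocyte markers 1019 in IL-4Rα-/- colitis, 1541 in WT colitis and 1083 in WT normal. Rgs5, a pericyte marker, had a log2 signal of 7.72 in IL-4Rα-/- colitis, 8.71 in WT colitis and 7.72 in WT normal, and Dcn, decorin of fibroblasts, had 9.49 in IL-4Rα-/- colitis, 10.76 in WT colitis and 9.49 in WT normal. These are profiles of the same order as that of Cald1, and the part of these cells in the values of Cald1 or of other members was not tested.

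The epithelial list was near level in summed linear signal, with 13482 in IL-4Rα-/- colitis, 13583 in WT colitis and 13902 in WT normal. All 9 of its markers were above background. In WT colitis relative to normal colon 4 were higher, 4 lower and 1 equal. Their log2 differences ran from -0.23 to 0.42, with a median of 0. Pacemaker cells of the muscle layers are the interstitial cells of Cajal. Ano1, their chloride channel, had a log2 signal of 7.72 in IL-4Rα-/- colitis, 7.09 in WT colitis and 8.16 in WT normal, 2.10-fold below normal colon in the WT colitis pool. Thbs4, on the same list, had 8.05 in IL-4Rα-/- colitis, 7.15 in WT colitis and 8.40 in WT normal, whereas Kit, the receptor that defines these cells, had 7.19 in IL-4Rα-/- colitis, 7.43 in WT colitis and 7.19 in WT normal. Etv1, a transcription factor of these cells, had 5.60 in IL-4Rα-/- colitis, 6.13 in WT colitis and 5.60 in WT normal. The list was thus split, with 2 genes lower and 2 higher in the WT colitis pool relative to normal colon. Of 12 striated muscle markers 8 were higher in the WT colitis pool relative to normal colon, 1 was lower and 3 were equal. The shares over all genes were 35.8% higher and 12% lower. On the striated list Myl1, a light chain of fast skeletal muscle, differed most, with 3.05 in IL-4Rα-/- colitis, 4.67 in WT colitis and 3.05 in WT normal. Only its value in WT colitis was above the guide to background. Actc1, the cardiac actin, was the 1 that was lower, with 7.70 in IL-4Rα-/- colitis, 7.20 in WT colitis and 7.96 in WT normal. On this list 5 markers were at background on every array, Myh1, Myh2, Myh4, Mylpf and Tnnc2. All of these but Myh1 were among the 8 that were higher. Actc1 and Acta1 share much of their sequence with Acta2. Of 10 measured markers of enteric neurons and glia, 3 were at background on every array. Between WT colitis and normal colon 4 were higher and 1 lower (median log2 difference 0), and between the IL-4Rα-/- and WT colitis pools 7 were lower and 0 higher (median -0.125). Between IL-4Rα-/- colitis and normal colon 6 were lower and 0 higher. Of all genes, 37.3% were lower in the former comparison of colitis pools and 17.9% in the latter. The 3 markers of nerve and glia at background were among the lower ones in both comparisons, so part of these counts lies below the guide. With them, the list was one-sided in the same comparisons as the contractile genes, but it was not alone in this. The pericyte list had 4 and 2 genes lower and 0 higher, and the endothelial list 6 and 3 lower and 0 higher. The part of nerve tissue in the values of the members was not tested. Of 4 mesothelial markers 3 were at background. Of 4 adipocyte markers 1 was at background on every array and only 1, Cidec, was above it on every array. Adipoq, Plin1 and Cidec were lower in both colitis pools than in normal colon. In both colitis pools Adipoq (3.26 in IL-4Rα-/- and 3.32 in WT) and Plin1 (3.44 in each) were below the guide to background. Cidec, a lipid droplet protein, had 5.02 in IL-4Rα-/- colitis, 5.10 in WT colitis and 5.95 in WT normal. In 8 of the contractile genes both colitis pools also lay below WT normal, and the part of fat in those values was not tested.

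The colons that went into the pools differed in length. Colon length ran from 8.2 to 11.3 cm in the 6 IL-4Rα-/- colitis mice, from 7.8 to 8.2 cm in the 3 WT colitis mice and from 10.5 to 12.6 cm in the 4 WT normal mice. The WT colitis pool thus held the shortest colons, while IL-4Rα-/- colitis held the lowest signal in 18 of 32 members. The arrays cannot relate length to signal mouse by mouse, because each holds 1 pool, and the part of length in these values was not tested.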

How the data were processed

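Expression was measured on GeneChip Mouse Gene 1.0 ST arrays, 1 for each pool of mice. The deposited values of the 28944 probe sets are log2 signals, rounded to 2 decimals by the authors. The study's methods name GeneChip Analysis Suite and Transcriptome Analysis Console for analysis and mention median centring for its colour code, and how the deposited values were summarised and scaled is not stated there, and the labelling text of the samples describes a kit for another array type. Log2 differences were taken between the deposited values. Of the probe sets, 21789 had 1 symbol in the platform annotation, 1621 had several and 5534 had none, and the probe set with the highest mean over the 3 arrays stood for a gene. With 1 array per group no test was run, so members are described by values, counts past 2-fold, medians and the same over all 19938 genes. A single array per group limits the precision. All members could be named, and of each other list up to 4 genes with the largest differences in WT colitis minus WT normal or IL-4Rα-/- colitis minus WT colitis. Actb and Myh9, and the striated muscle markers at background, were named beyond that rule after their values were seen. The members and lists were chosen with earlier results of these data known. The counts by any amount and the search with 1 letter off were added after seeing the data. The alternatives were quantile normalization, centring on the array median, an offset of 32 on the linear scale, 2 filters on dim genes, other uses of a gene's probe sets and other fold thresholds. The counting step was tested on simulated data. Python 3.11.15, numpy 2.4.6, pandas 2.3.3 and matplotlib 3.10.9 were used.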

Additional observations from a re-analysis of the deposited data

How the results depend on the processing

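No paired analysis was possible because each group has 1 array. The 1 member past 2-fold between WT colitis and normal colon (higher), and the 1 past 2-fold between IL-4Rα-/- and WT colitis (lower), became 0 with quantile normalization, centring on the array median, the offset of 32 and a 4-fold threshold, and at 1.5-fold 2 members were lower in IL-4Rα-/- colitis. Both counts rest on Cald1, which differed by 0.94, 0.94 and 0.90 on the log2 scale between WT colitis and normal colon under the 3 rescalings, so its 2-fold call depends on the scaling. The median for IL-4Rα-/- colitis minus WT normal was -0.22 over the members that were not equal on all 3 arrays. Members below normal colon by any amount in WT colitis numbered 18 with quantile normalization or centring (66.5% and 70.5% of all genes) and 5 at more than 0.1 on the log2 scale (7.03%). Members above WT colitis by any amount in IL-4Rα-/- colitis numbered 9 with quantile normalization or centring (66.8% and 69.5% of all genes) and 0 at more than 0.1 (6.02%), and members above normal colon in IL-4Rα-/- colitis numbered 3 with quantile normalization (50.9% of all genes) and 1, Kcnma1, when the probe sets of a gene were averaged. Centring takes 0.07 off every value of the WT colitis array, which turns equal values into differences. With at most 1 letter off, 14 members had a CArG box. The other medians moved by less than the robust spread of differences over genes that were not equal on all 3 arrays, which was 0.178 between WT colitis and normal colon, 0.148 between the colitis pools and 0.0741 between IL-4Rα-/- colitis and normal colon. Of the log2 differences of single members, 96 of 96 moved by less than that spread with quantile normalization and with centring, and 93 of 96 with the offset. Centring moves every member of a comparison by the same amount, at most 0.07, which is below each spread. The result with centring was thus fixed in advance, for single members and medians alike. That spread is taken over genes and is no error of a difference.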
